A study of Homo sapiens with 6 samples.

Results

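The MAGE-A genes are a family of cancer-testis antigens on the X chromosome, and they were measured here in SU-DHL-2 cells, an established line of diffuse large B-cell lymphoma (DLBCL). The members were the 10 genes MAGEA1, MAGEA2, MAGEA3, MAGEA4, MAGEA6, MAGEA8, MAGEA9, MAGEA10, MAGEA11 and MAGEA12, out of 19740 genes that a probe of the array could be assigned to. A probe was taken as a member's when its RefSeq accession belonged to that gene, which gave 9 probes for 8 of the 10 genes. MAGEA6 had 2 probes, and MAGEA2 and MAGEA3 had none. The family was chosen by the values of 1 MAGEA6 probe in the comparison of IL-17A with control, so that comparison is given for the members as a description, and nothing is drawn from it. MAGEA2B, a near-identical copy of MAGEA2, had 2 probes and is described beside the members, and no probe was assigned to MAGEA9B, a copy of MAGEA9.

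The study asked how IL-17A, a cytokine of Th17 cells, acts on DLBCL cells. SU-DHL-2 cells were cultured for 72 h with IL-17A at 200 pg/ml (3 samples) or without it (3 controls), and their RNA was labelled with Cy3 and hybridized to one-colour Whole Human Genome arrays, 1 per sample. All 6 samples came from a single cell line, and the methods speak of 3 cultured samples a group but not of separate passages or days, so the spread between arrays may be technical. IL-17A replicate 1 shared its scan with the 3 controls (4 arrays on scan 1), while IL-17A replicates 2 and 3 were on scan 2.

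In normal adult tissue the MAGE-A genes are transcribed almost only in male germ cells, because the promoters are methylated at CpG pairs elsewhere, and loss of that methylation switches them on in many tumors. The proteins bind RING ubiquitin ligases, with TRIM28 as the best known partner of MAGEA3 and MAGEA6, and direct them to substrates such as the AMPK subunit encoded by PRKAA1. Peptides of MAGE-A proteins presented on MHC class I are recognized by cytotoxic T cells, which made the family a target of tumor immunotherapy.

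The promoters are shown first, because the members are so alike that a reader should see what they share. RefSeq windows of 250 bases before the transcription start (GRCh38.p14) were found for 8 of the 10 members and for both copies, 16 windows in all, since some genes have several annotated starts. The 4 below are those of MAGEA6, MAGEA2B and MAGEA12, each of which had 1 probe with a higher normalized signal on every IL-17A array, and of MAGEA8, which had none. Each is written 5′ to 3′ on the strand of its gene and ends at the base before the start. The capitals mark the letters GGATGTGA, a motif picked after the windows had been read. The windows are those of MAGEA6 at chrX:152769690-152769939 (minus strand), MAGEA2B at chrX:152714378-152714627 (plus strand), MAGEA12 at chrX:152733507-152733756 (plus strand) and MAGEA8 at chrX:149880933-149881182 (plus strand).
MAGEA6: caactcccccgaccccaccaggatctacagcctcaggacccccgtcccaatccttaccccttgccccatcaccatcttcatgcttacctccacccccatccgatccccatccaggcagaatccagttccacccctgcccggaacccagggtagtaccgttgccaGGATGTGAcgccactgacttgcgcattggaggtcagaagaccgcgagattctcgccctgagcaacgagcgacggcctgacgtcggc
MAGEA2B: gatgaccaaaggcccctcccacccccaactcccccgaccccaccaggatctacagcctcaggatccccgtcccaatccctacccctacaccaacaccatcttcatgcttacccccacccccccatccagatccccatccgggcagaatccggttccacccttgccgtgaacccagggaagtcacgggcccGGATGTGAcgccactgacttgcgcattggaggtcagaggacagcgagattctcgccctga
MAGEA12: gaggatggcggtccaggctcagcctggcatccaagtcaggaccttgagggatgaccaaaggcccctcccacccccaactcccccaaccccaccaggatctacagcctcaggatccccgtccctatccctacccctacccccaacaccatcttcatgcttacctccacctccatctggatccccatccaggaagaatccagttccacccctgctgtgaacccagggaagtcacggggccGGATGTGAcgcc
MAGEA8: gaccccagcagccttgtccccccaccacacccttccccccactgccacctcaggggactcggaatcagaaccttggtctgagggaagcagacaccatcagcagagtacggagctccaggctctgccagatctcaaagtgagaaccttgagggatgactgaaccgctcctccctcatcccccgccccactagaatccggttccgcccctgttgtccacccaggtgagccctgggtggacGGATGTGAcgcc

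The motif stood in 16 of 16 MAGE-A windows, always on the strand of the gene, and in 339 of the 35116 windows of the whole RefSeq table on either strand (0.965%). It began 86 bases before the start of MAGEA6, 60 before that of MAGEA2B and 12 before those of MAGEA8 and of MAGEA12 at the start shown. The MAGEA6 window was identical to that of MAGEA3 over 250 of 250 bases, and the MAGEA2B window to that of MAGEA2. MAGEA6 and MAGEA2B matched at 73.5% of aligned positions, and MAGEA6 and MAGEA8 at 52.6%. CpG pairs, the sites of DNA methylation, numbered 15 in the MAGEA6 window, 11 in that of MAGEA2B and 8 in that of MAGEA8. They numbered 5 in the MAGEA12 window shown and 13 in that of its other start, against a median of 11 over all windows. Over the 16 MAGE-A windows they ranged from 5 to 18. A match is only a match of letters, and methylation was not measured on these arrays.

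**Figure D1:**
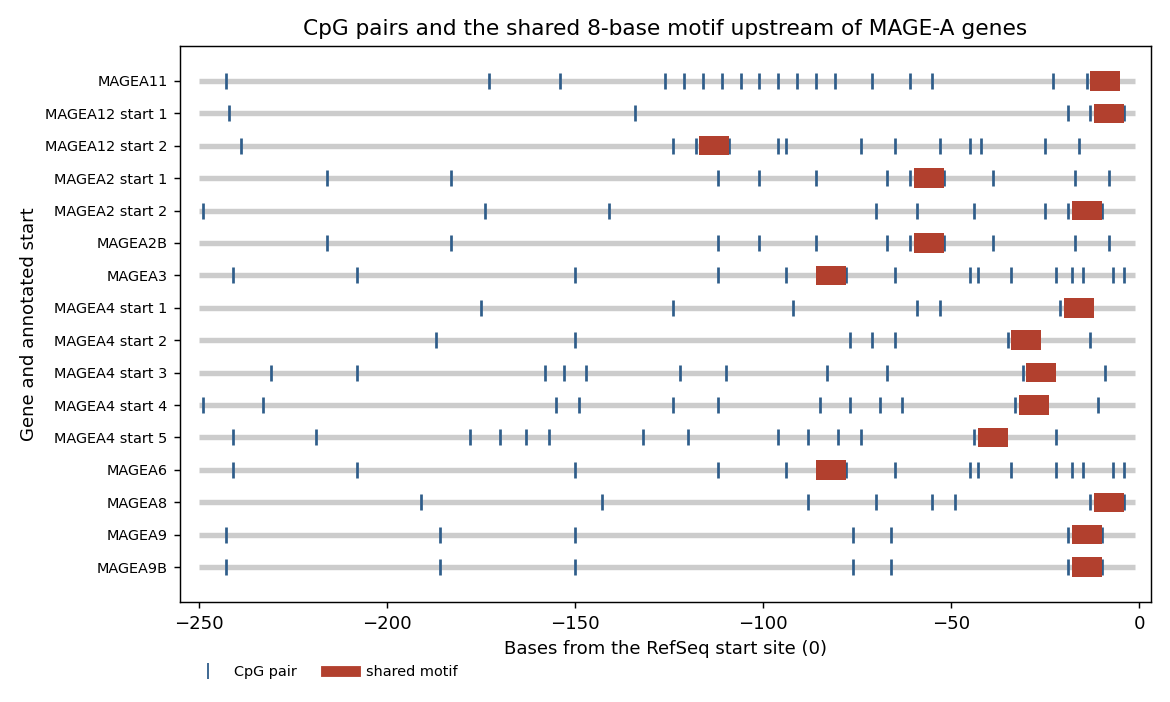
Position of CpG pairs (blue ticks) and of the shared 8-base motif (red bars) in the 250 bases before each annotated start of the MAGE-A genes; the horizontal axis gives bases from the start, and each row is 1 start. All 16 rows hold the motif, and the rows of MAGEA3 and MAGEA6 are the same.

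MAGEA6, whose protein is a partner of TRIM28, gave different pictures at its 2 probes. The probe A_33_P3342375, whose values chose the family, had a normalized signal (log2 scale) of 3.47, 3.74 and 3.62 on the IL-17A arrays and of 0.03, 0.05 and 0.05 on the control arrays. All 3 IL-17A arrays were far above all 3 controls. The probe was well above background, by the flag of the extraction software, on 3 of 3 IL-17A arrays and on 0 of 3 control arrays. The difference of the mean signals was 3.57 on the log2 scale (SE 0.07) as measured. Because no control array measured the probe, the size of the difference depends on the floor. With each dim control array raised to its lowest signal that was well above background, the difference was 1.63 on the log2 scale (3.09-fold). In the authors' own table, which has another floor, it was 1.39, so 3.09-fold is no lower limit. After normexp background correction it was 0.24, but the offset of 50 added there shrinks any difference between signals this faint. The normexp value therefore decides nothing about this probe. Whether the probe reports more MAGEA6 RNA was not tested, and the groups overlapped at the gene's other probe, given below. If it does, more RNA per cell and more cells expressing the gene cannot be told apart in these bulk samples. Raised values of this kind compare the mean log2 signals of the groups after each array below its lowest signal well above background was set to that level. That level is not a detection limit for every probe. On IL-17A replicate 1 it was 1.95 (log2), while the MAGEA12 probe at 2.57 was not well above background.

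The signal behind this difference was faint. Before normalization, the background-subtracted signal of the probe's single spot was 10.7, 13.2 and 11.6 scanner units on the IL-17A arrays, and -1.04, 0.23 and -0.28 on the control arrays. The error that the software gave for the processed signal was 1.48, 1.67 and 1.58 on the IL-17A arrays. The control spots were therefore near 0 after background subtraction, and the IL-17A spots stood above 0 by several times that error. The median brightness of the spot was 29, 31 and 30 over a local background of 14, 13 and 13 with IL-17A, and 15, 18 and 18 over 13, 13 and 12 in the controls. By this measure the control spots were above their local background too, by less than the IL-17A spots. The processed control signals of 1.01, 1.04 and 1.05 were those of spots that the software did not find significant, and such spots, 13.9% to 15.4% of each array, all had processed signals between 0.894 and 1.54. For comparison, the median signal of the tested probes was 117.

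The other MAGEA6 probe, A_23_P136870, was spotted 10 times on each array. Its normalized signal was 2.92, 3.07 and 2.90 (log2) with IL-17A and 2.93, 2.75 and 2.91 in the controls. The groups overlapped, and the difference was 0.10 (SE 0.07). This probe was well above background on all 6 arrays, with 10, 10 and 9 of its 10 spots flagged so with IL-17A and 10, 9 and 8 in the controls. Its mean background-subtracted signal was 7.84, 8.79 and 7.66 scanner units with IL-17A and 8.80, 7.31 and 8.30 in the controls, or 8.10 ± 0.60 and 8.14 ± 0.76 (SD, n = 3 each). The 2 probes of the gene thus disagreed: one went from the background level to a measurable signal, and the other was measurable in both groups, which overlapped.

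The 10 spots also show how far a single faint spot can stray within an array. The background-subtracted signal of A_23_P136870 ranged from 5.29 to 9.96 over its spots on IL-17A replicate 1 and from 3.49 to 12.2 on control replicate 2. The SD of its log2 intensity over spots was 0.36 to 0.52. Among all probes spotted 10 times with a mean log2 intensity of 2.5 to 4, the median of that SD was 0.29 and its 90th percentile 0.52, over 425 combinations of probe and array. A_33_P3342375 had 1 spot per array, so it has no such check within an array. The probe sequences were not used here, and which other MAGE-A transcripts either probe can bind is not known from the files.

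**Figure D2:**
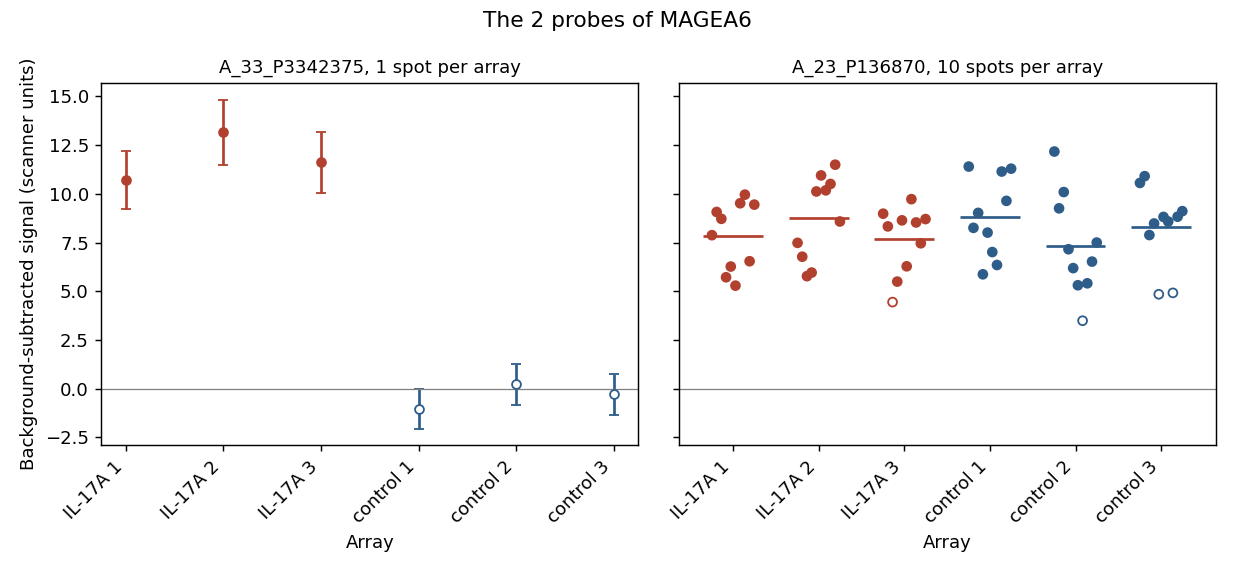
Background-subtracted signal in scanner units of every spot of the 2 MAGEA6 probes on each of the 6 arrays; filled circles are spots flagged well above background, bars on the left are the software's error of the processed signal, and lines on the right are means of 10 spots. On the left the IL-17A spots lie between 10.7 and 13.2 and the control spots near 0, whereas on the right the 2 groups overlap.

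MAGEA12 and MAGEA2B, which lie in the same cluster of genes as MAGEA6, had a higher normalized signal with IL-17A at 1 probe each, by less and near the limit of detection. The normalized signal of MAGEA12 (A_23_P252928) was 2.57, 2.23 and 2.57 (log2) with IL-17A and 2.12, 1.63 and 0.97 in the controls. On this scale every IL-17A array was above every control, the difference being 0.89 (SE 0.32). The probe was flagged significant on every array but well above background on 0 of 6, and no fold change can be given. Background-subtracted, it was 4.10 ± 0.60 scanner units with IL-17A and 2.50 ± 0.96 in the controls (SD, n = 3 each), and the groups overlapped before normalization, with 3.43 on IL-17A replicate 2 and 3.58 on control replicate 1. Without control replicate 3, the lowest array, the difference was 0.58, and with dim arrays raised to their lowest signal well above background it was 0.38.

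MAGEA2B has a counterpart in MAGEA2 of nearly the same sequence, so its probes are read for the pair. The normalized signal of A_23_P148255 was 3.61, 2.78 and 2.68 (log2) with IL-17A and 2.33, 1.78 and 2.20 in the controls. The groups did not overlap, and IL-17A replicate 1 was the highest array. The difference was 0.92 (SE 0.29), and the probe was well above background on 3 of 3 IL-17A arrays and 0 of 3 controls. With dim arrays raised, which changed control replicate 2 alone (from 1.78 to 2.02), the difference was 0.84 on the log2 scale (1.79-fold). This is no lower limit, since the difference was 0.63 without IL-17A replicate 1 and 0.76 in the authors' own table. After normexp correction, whose offset shrinks faint differences, the difference was 0.05. Within scan 1, where that replicate alone faces the 3 controls, it was 1.51. The second MAGEA2B probe, A_33_P3411165, was near the floor of the scale on every array, with 0.10, 0.12 and 0.00 (log2) against 0.42, 0.00 and 0.00, and was not well above background on any array.

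The remaining 6 members did not clear the background by the flag used here. None of MAGEA1, MAGEA4, MAGEA8, MAGEA9, MAGEA10 and MAGEA11 was well above background on any of the 6 arrays, and the groups overlapped for each. By the weaker flag for a significant signal, MAGEA4 was positive on all 6 arrays. MAGEA10 was so on IL-17A replicates 1 and 3 and on control replicates 2 and 3. MAGEA1, the antigen that gave the family its name, was at the floor of the scale, with no normalized signal above 0.01 (log2). MAGEA4, a frequent target of T-cell therapies, had 0.71, 0.44 and 0.50 (log2) with IL-17A and 1.19, 1.08 and 0.25 in the controls. MAGEA10 had 0.67, 0.00 and 0.35 with IL-17A and 0.00, 0.82 and 0.90 in the controls. For these 2 genes the control mean was the higher, by 0.29 and 0.23, and the spread between arrays covered the difference.

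MAGEA8 and MAGEA9 stood off the floor on control replicate 1 alone, at 1.57 and 0.77 (log2), and reached at most 0.034 on the other 5 arrays. MAGEA11, a coregulator of the androgen receptor, was the second member with 10 spots per array. Its normalized signal was 0.14, 0.19 and 0.05 (log2) with IL-17A and 0.02, 0.24 and 0.16 in the controls, with 0 of 10 spots well above background on any array. Fewer copies per cell and no transcript at all cannot be told apart at this signal.

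**Figure D3:**
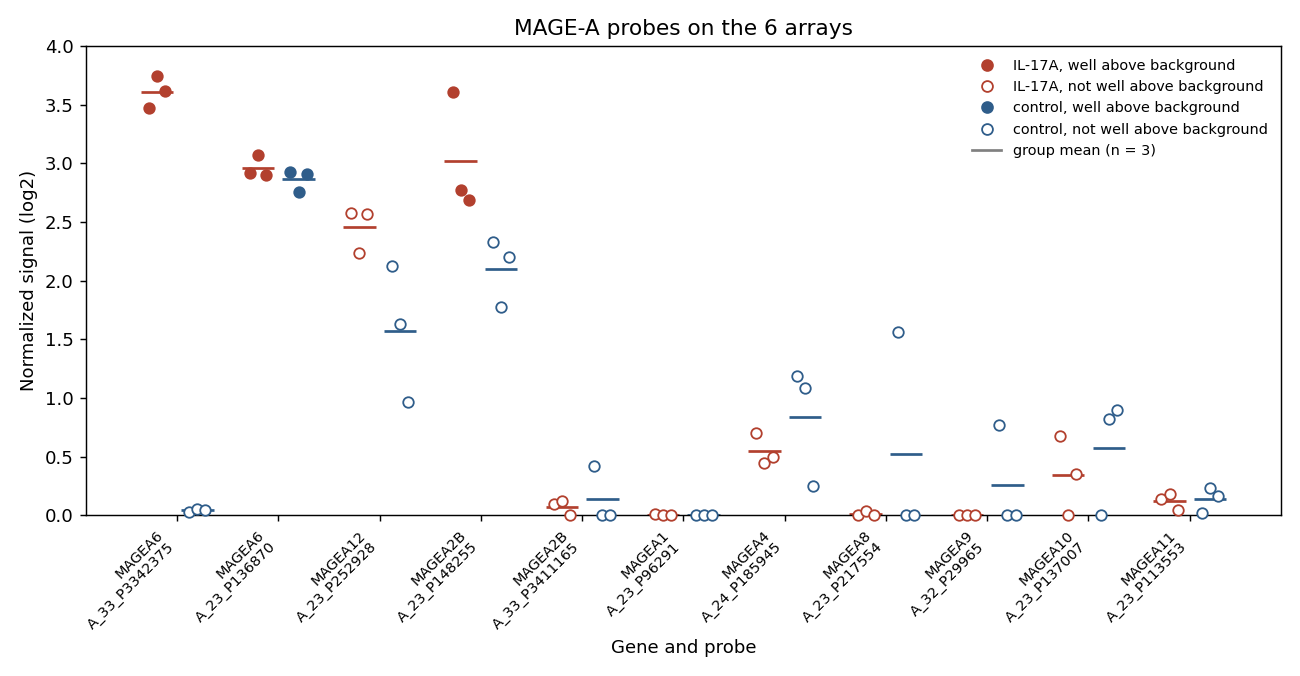
Normalized signal (log2) of the 9 MAGE-A probes and the 2 MAGEA2B probes on the 3 IL-17A arrays (red) and the 3 control arrays (blue); lines are group means, and open circles are arrays on which the probe was not well above background. The red and blue circles are separate for MAGEA6 A_33_P3342375, MAGEA12 and MAGEA2B A_23_P148255, and only both MAGEA6 probes and that MAGEA2B probe have filled circles.

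Across the family, 2 of the 9 probes were detected on at least 3 of the 6 arrays, and both were MAGEA6 probes. The methods ask for detection on 3 arrays without tying it to a column, and the flag for well above background was used here. With the significance flag alone, 5 probes were detected, both of MAGEA6 and those of MAGEA4, MAGEA10 and MAGEA12. By the thresholds in the study's array methods (fold change 1.5 or more, p below 0.05, unadjusted here), 1 of these 2 passed, A_33_P3342375. Of all 23945 tested probes, 522 (2.18%) passed in either direction and 241 (1.01%) higher with IL-17A. The study's statistical methods also ask for a false discovery rate below 0.05. That limit is not part of the calls of up- or downregulated genes here, and with it 197 of all tested probes (0.823%) passed. A_33_P3342375 passed the filter through the IL-17A arrays alone and was the probe that chose the family, so its call follows from that choice and is no test of the family.

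By position of the arrays, 1 of the 2 tested MAGE-A probes had every IL-17A array above every control, as had 21% of all tested probes. Over all probes, tested or not, 2 of 9 did so in the normalized signal, A_33_P3342375 and the MAGEA12 probe, against 16.5%. Probes that cleared the background on all of the IL-17A arrays but on no control numbered 41 of 34127 (0.12%), and A_33_P3342375 was the single member among them. That probe chose the family by these same values, so its place in each of these counts follows from the choice and is no support. The reverse pattern was seen for 70 probes (0.205%), 0 of them of a member.

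The 3 MAGE-A and MAGEA2B probes with a higher normalized signal on every IL-17A array, of which MAGEA12 overlapped before normalization, belong to genes of a single stretch of the X chromosome. In the RefSeq gene order this stretch runs MAGEA3, CSAG2, MAGEA2B, CSAG1, MAGEA12, MAGEA2, CSAG3 and MAGEA6. CSAG1 and CSAG3, chondrosarcoma-associated genes that are themselves cancer-testis antigens, stand between the MAGE-A genes and were measurable on all 6 arrays. CSAG1 had a normalized signal of 3.16, 2.99 and 3.05 (log2) with IL-17A and 3.06, 2.63 and 3.37 in the controls. Its groups overlapped, with a difference of 0.04 (SE 0.19, limma adjusted p = 0.895). CSAG3 had 4.13, 4.53 and 4.14 (log2) against 3.99, 4.23 and 4.31, again with overlap, and a difference of 0.09 (SE 0.14, limma adjusted p = 0.703). Neither difference kept its sign under all alternatives.

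No other tested gene of the wider neighbourhood passed the thresholds. Between MAGEA9B and MAGEA1 the RefSeq order holds 41 protein-coding genes, of which 29 are not MAGE-A genes and 18 of those were tested. At their brightest probes 0 of the 18 passed both thresholds in limma, which is near the 1.92% of all tested genes that did. An unadjusted p under 0.05 was found for 2 of them, HSFX1 and MTMR1, against 31.8% of all tested genes. At its dimmer probe HMGB3 was lower on every IL-17A array, with a difference of -0.25 (SE 0.04, limma adjusted p = 0.033), and -0.05 at its brighter. VMA21 had 0.21 at its dimmer probe (SE 0.06, limma adjusted p = 0.090) and 0.07 at its brighter. All were short of the fold change threshold. The differences of the 18 genes at their brightest probes ran from -0.83 to 0.43 with a median of -0.05 (log2), against 0.00 over all 14747 tested genes. The lowest was GABRA3, a GABA-A receptor subunit, at 4.29, 5.59 and 5.13 (log2) with IL-17A and 6.12, 5.95 and 5.43 in the controls, where the groups overlapped (limma adjusted p = 0.186). Among the genes that were not tested, FATE1, a cancer-testis antigen, had 0.97, 1.03 and 0.39 (log2) with IL-17A and 0.14, 0.00 and 0.00 in the controls. Its groups did not overlap, by 0.75, it was not well above background on any array, and it passed both thresholds without a filter on dim probes. PNMA3, also not tested, had 0.15, 1.97 and 1.72 (log2) with IL-17A and 2.56, 1.71 and 3.36 in the controls. Its difference was -1.26 and its groups overlapped, with 2 of 3 controls and 0 of 3 IL-17A arrays well above background. The 2 untested GABRQ probes disagreed, with 0.78 and -0.44. GABRA3, HSFX1, MTMR1, HMGB3, VMA21, FATE1, PNMA3 and GABRQ were named after their values were seen.

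**Figure D4:**
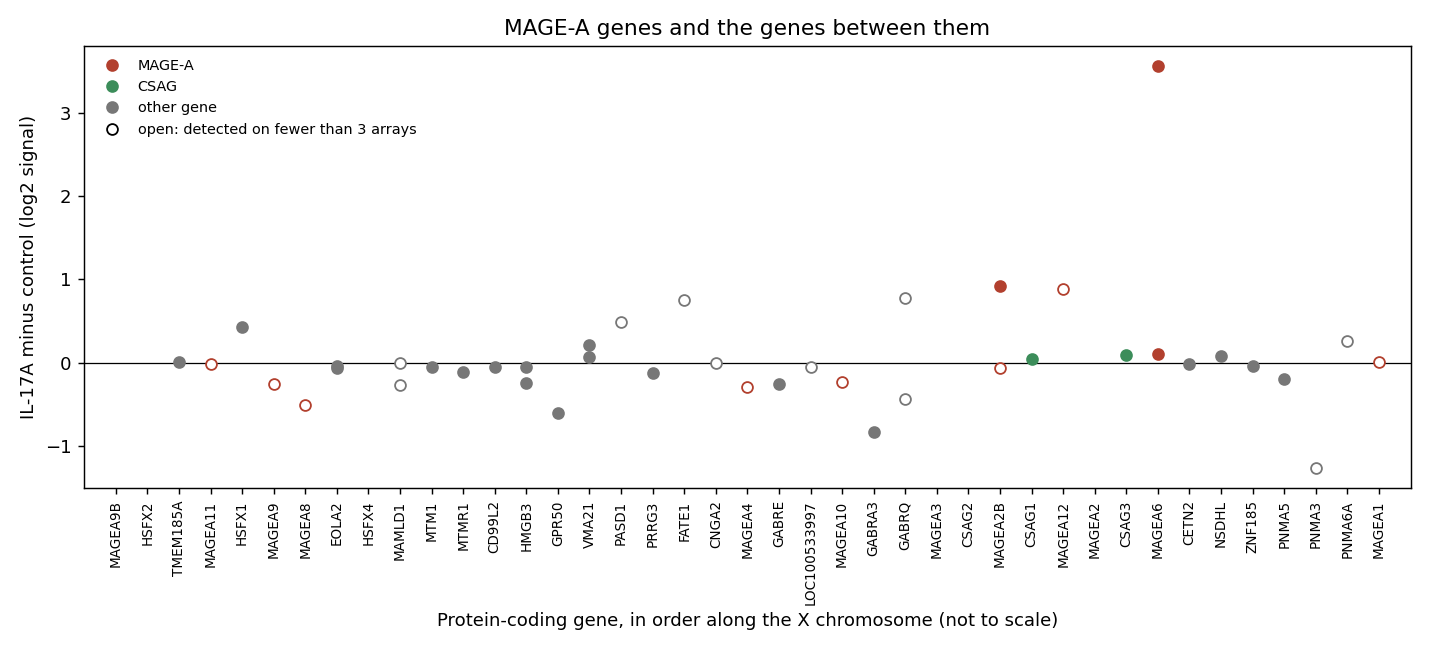
Difference of the mean normalized signal, IL-17A minus control (log2), for every probe of the protein-coding genes from MAGEA9B to MAGEA1, placed in gene order and not to scale; filled circles were detected on at least 3 of 6 arrays. The points furthest above 0 are MAGEA6 A_33_P3342375 at 3.57, MAGEA2B at 0.92 and MAGEA12 at 0.89, with CSAG1 and CSAG3 near 0 between them.

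Outside the family, 136 tested genes had the GGATGTGA motif before an annotated start, out of 318 genes with it in all. Of these, 2 were upregulated, ENOX1 by 0.63 (log2, limma adjusted p = 0.035) and RBFOX3 by 1.17 (limma adjusted p = 0.052), and 1 was downregulated, OR6K2, with a difference of -1.17 (limma adjusted p = 0.048). The 3 were named after their values were seen. Counted in the same way, at the brightest tested probe of each gene, 283 of 14747 genes (1.92%) passed both thresholds. The median difference of the 136 genes was 0.02. Of the other MAGE and cancer-testis genes listed for comparison, MAGEB2 and MAGEB16 held the motif.

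No tested type I MAGE gene outside the A group was upregulated. These genes (MAGEB and MAGEC) share the testis-restricted pattern, and 11 of the 13 listed were on the array. Of these, 3 were tested and 1, MAGEC1, was downregulated, while 1.92% of all tested genes passed both thresholds in either direction. The normalized signal of MAGEC1 (A_23_P217178) was 2.67, 2.38 and 2.00 (log2) with IL-17A and 3.01, 3.24 and 3.39 in the controls, without overlap. The difference was -0.86 (SE 0.19, limma adjusted p = 0.053), and within scan 1 it was -0.54 and no longer passed. A second MAGEC1 probe was at the floor on every array.

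MAGEC2, another partner of TRIM28, had 1.28, 1.05 and 1.19 (log2) with IL-17A and 1.85, 2.18 and 2.16 in the controls at A_23_P62099. The controls were the higher on every array, by 0.89, but only 1 of the 6 arrays was well above background and the probe was not tested. Without a filter on dim probes it passed both thresholds, lower with IL-17A (limma adjusted p = 0.039). MAGEB2, a MAGE gene of germ cells, was 2.79, 2.84 and 2.97 (log2) against 3.31, 3.07 and 3.03. All 3 IL-17A arrays of MAGEB2 were below all 3 controls, by 0.27 (SE 0.09, limma adjusted p = 0.118), short of the fold change threshold. MAGEB6 overlapped between the groups, with a difference of 0.27 (SE 0.33).

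The type II MAGE genes, which are expressed in many tissues and lack the germ-cell restriction, were measurable for 8 of the 10 on the array. Of these 8, 0 passed both thresholds in limma, which is near the 1.92% of all tested genes that did. An unadjusted p under 0.05 was found for 0 of them, against 31.8% of all tested genes. The median of their differences was 0.07 (log2). With scan as a block MAGED4B passed, with -1.09 (SE 0.24) against -0.21 (SE 0.40) over all arrays, and without IL-17A replicate 1 MAGEH1 passed, with 0.61 (SE 0.18) against 0.42 (SE 0.22). Both were named after their values were seen. MAGED1, an adaptor of the p75 neurotrophin receptor, had a difference of -0.01 (SE 0.07) and MAGED2, a factor of renal salt transport, of 0.11 (SE 0.07).

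Of 198 other cancer-testis genes, 128 were on the array and 68 were tested. At their brightest tested probes 1 was upregulated, 2 were downregulated and 65 did not pass, so that 3 of 68 passed against 1.92% of all genes, with a median difference of -0.01 (log2). TSSK6, a testis-specific kinase, was 2.50, 2.53 and 2.39 (log2) with IL-17A and 1.43, 1.98 and 2.19 in the controls, a difference of 0.60 (SE 0.20, limma adjusted p = 0.106). TSSK6 was well above background on 1 of 3 controls, and its call was lost in many alternatives. It no longer passed in the authors' table (0.26), with dim signals raised (0.45), with 75th percentile scaling (0.49) or without normalization (0.52). Nor did it pass with a variance trend or by the methods' t-test. With scan as a block the difference was 0.63. After normexp correction it was 0.04, but the offset used there shrinks faint differences, so this value decides nothing about the call. Leaving out IL-17A replicate 1 (0.59), leaving out IL-17A replicate 2 (0.58) and leaving out control replicate 1 (0.39) ended it too. None of the 3 genes that passed did so with the adjusted p, as 197 of all tested probes (0.823%) did.

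CTAG2, the LAGE-1 antigen related to NY-ESO-1, fell from 3.90, 4.13 and 3.77 (log2) in the controls to 3.64, 2.90 and 2.75 with IL-17A. The difference was -0.83 (SE 0.25, limma adjusted p = 0.090), and -0.29 within scan 1. Its call was lost there and without IL-17A replicate 2 (-0.73) or control replicate 2 (-0.74). CT55, another X-linked antigen, fell from 4.39, 4.25 and 4.13 to 4.10, 3.25 and 3.36, a difference of -0.69 (SE 0.23, limma adjusted p = 0.116), and -0.16 within scan 1. It no longer passed there, by the methods' t-test, or when 1 array was left out, be it IL-17A replicate 2 (-0.53) or 3 (-0.58), or control replicate 1 (-0.62) or 2 (-0.69). In CTAG2, CT55 and MAGEC1, IL-17A replicate 1, the one on the scan of the controls, was the closest of the 3 to the controls. The part of the scan in these values was not tested beyond this. PRAME and CTCFL, a melanoma antigen and a testis-specific relative of CTCF, were not well above background on any array, and no probe was assigned to CTAG1B.

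**Figure D5:**
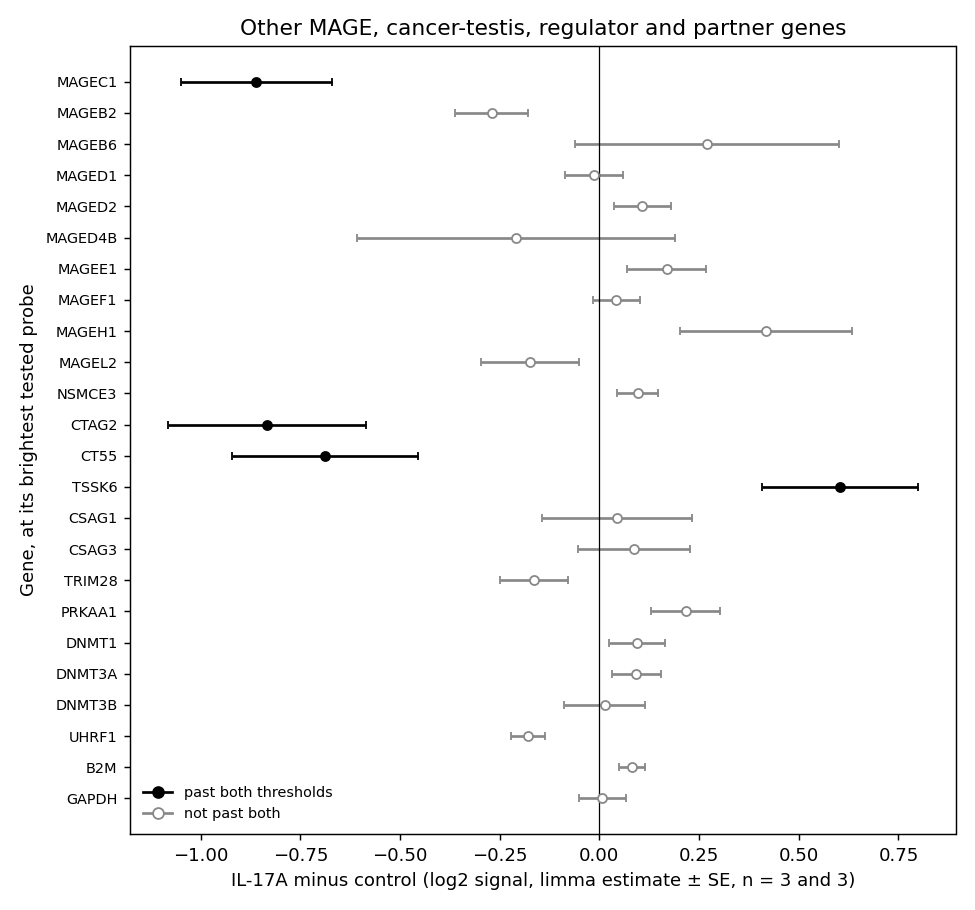
Difference IL-17A minus control (log2) with its limma SE (n = 3 and 3) for the other MAGE genes tested, and for named cancer-testis, regulator and partner genes, each at its brightest tested probe; filled circles passed both thresholds. MAGEC1, CTAG2 and CT55 lie below 0 and TSSK6 above, and the other genes stayed short of the thresholds.

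No gene listed as keeping cancer-testis promoters silent or opening them passed at its brightest probe. Of 41 such regulators 37 were tested and 0 passed both thresholds in limma, against 1.92% of all genes, with 13 at an unadjusted p under 0.05 (31.8% of all tested genes had one) and 0 passing by the methods' t-test. DNMT1, the maintenance DNA methyltransferase, was 13.08, 13.28 and 13.19 (log2) with IL-17A and 13.02, 13.07 and 13.18 in the controls, with overlap. Its difference was 0.09 (SE 0.07), and those of the de novo enzymes DNMT3A and DNMT3B were 0.09 (SE 0.06) and 0.01 (SE 0.10). UHRF1, which guides DNMT1 to replicated DNA, was lower on all 3 IL-17A arrays, by 0.18 (SE 0.04, limma adjusted p = 0.060), short of the fold change threshold. TET1, which oxidizes methylcytosine, was 0.25 higher (SE 0.04, limma adjusted p = 0.036) and ETS1, a transcription factor of the ETS family, 0.33 higher (SE 0.07, limma adjusted p = 0.048), both below a fold change of 1.5. TET1 differed in the other direction at its second probe, by -0.18 (limma adjusted p = 0.103). TET2 passed at 1 of its 4 probes, with 0.69 (SE 0.13, limma adjusted p = 0.041), while the other probes gave 0.09, 0.17 and -0.23. TET1, TET2 and ETS1 were named after their values were seen.

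Partners and substrates of MAGE-A proteins, 29 of 31 tested, did not pass both thresholds in limma either, with 9 at an unadjusted p under 0.05 against the same 31.8% of all genes. TRIM28 was 10.00, 9.75 and 9.92 (log2) with IL-17A and 10.12, 10.11 and 9.93 in the controls. The groups overlapped, with a difference of -0.16 (SE 0.09, limma adjusted p = 0.247). PRKAA1 differed by 0.22 (SE 0.09, limma adjusted p = 0.157). In the genes of MHC class I presentation, 0 of 18 passed in limma and 2 had an unadjusted p under 0.05, with 0.08 (SE 0.03) for B2M. GAPDH, a common reference gene, differed by 0.01 (SE 0.06).

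The pattern of the MAGEA6 probe A_33_P3342375 over the 6 arrays was most like those of GPR107, OIP5-AS1, TTC39C, ABCA1 and RNF222, with Pearson correlations of 0.997 to 0.999 over 6 arrays that fall into 2 groups. These genes were higher with IL-17A by 0.33, 0.28, 0.15, 0.66 and 0.58 (log2), and each was well above background on all 6 arrays. The correlation describes 2 levels with little spread, not the size of the difference. It uses the values that chose the family, so the list is a description only. The low level of A_33_P3342375 comes from control spots that the software did not find significant, so its small spread is not that of a measured signal.

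Between 23570 and 24077 probes were detected per array, no spot was saturated, and the median difference over tested probes was 0.01 (log2). Of the markers of the cell type, 8 of 8 B-lymphocyte genes were well above background on all 6 arrays, with a summed signal of 43438 to 45573 with IL-17A and 42766 to 43550 in the controls. All 7 T and NK cell markers were too, at a summed signal of 212 to 233 and 220 to 233. CD14 was the single one of 5 monocyte markers, and COL1A1 of 5 mesenchymal markers, that was so. Of 6 germ-cell markers, DDX4, DAZL and PIWIL1 were not well above background on any array, and SYCP3 was the single one tested. Its signal was 3.64, 3.24 and 3.63 (log2) with IL-17A and 3.03, 2.94 and 3.09 in the controls, a difference of 0.49 (SE 0.12, limma adjusted p = 0.064), and its part in the MAGE-A values was not tested.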

How the data were processed

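The 6 arrays were scanned and extracted by the authors with Agilent Feature Extraction 11.0.1.1. The deposited files hold an intensity per spot, background-subtracted and not normalized between arrays, with flags. A deposited table of quantile normalized log2 values, made by the authors, served as an alternative. Control and non-uniform spots (4 to 25 per array) were left out, intensities below 1 were set to 1, the log2 values of the spots of a probe were averaged, and arrays were quantile normalized. Probes positive, significant and well above background on at least 3 of 6 arrays were tested with limma 3.58.1 in R 4.3.3 (two-sided, no covariates), and Benjamini-Hochberg adjustment ran over all 23945 probes. The number of arrays limits the precision, and with 3 against 3 an exact permutation test cannot give p below 0.1. Replicate numbers did not pair the samples. Probes were named through RefSeq accessions (GRCh38.p14), 25771 of 34127 probes with 1 gene. The limma procedure was tested on simulated data.

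The members, gene lists and tests were chosen with earlier results of these data known. Named were every member probe, genes of each list past both thresholds, a fixed set of genes (some not reported here), and the 5 tested probes most correlated with A_33_P3342375. Alternatives covered normalization, background correction, filters, floor, test, blocks, thresholds and each array left out.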

Additional observations from a re-analysis of the deposited data

How the results depend on the processing

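The MAGEA6 probe A_33_P3342375 was higher with IL-17A in all settings, with 3.50 to 3.64 (log2) when single arrays were left out, 3.43 with scan as a block, 1.63 with dim signals raised, 1.39 in the authors' table and 0.24 after normexp correction with an offset of 50. That offset is larger than the signal of these faint probes and shrinks their differences, so normexp values and counts decide nothing about faint calls. A_23_P136870 ran from -0.003 (75th percentile scaling) to 0.13. Against 522 probes and 1 MAGE-A probe past both thresholds, normexp gave 16 and 0, no filter 978 and 2, detection on all 6 arrays 299 and 0, a fold change of 2 gave 82 probes, the adjusted p 197, and single arrays left out 409 to 658. With the significance flag alone, 5 MAGE-A probes were detected on 3 arrays, against 2. The split of higher and lower calls was 241 to 281, and 150 to 422 with 75th percentile scaling, 186 to 426 without normalization and 260 to 509 with scan as a block. The replicate block called 527 probes and changed no MAGE-A call; same-numbered samples did not deviate together (correlations -0.087, -0.0022 and -0.047).

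Other MAGE genes passing numbered 1, with 0 after normexp, detection on all 6 arrays, a fold change of 2 or the adjusted p, 2 without a filter, 1 with scan as a block (MAGED4B at -1.09 in place of MAGEC1), and 1 to 2 with single arrays left out (2 without IL-17A replicate 1). Other cancer-testis genes numbered 3, with 0 after normexp, a fold change of 2 or the adjusted p, 6 without a filter, 1 by the methods' t-test, 1 with scan as a block (LDHC at -4.14, none of the 3), and 0 to 4 with single arrays left out. Regulators and partners numbered 0, and 1 without a filter. Signs turned for differences near 0: with 75th percentile scaling CSAG1 -0.050 and GAPDH -0.093; without normalization MAGED1 0.021, CSAG1 -0.025 and GAPDH -0.067; with scan as a block DNMT1 -0.011, DNMT3B -0.13, MAGED1 0.11 and CSAG3 -0.046. With single arrays left out, CSAG1 ran from -0.15 to 0.22, GAPDH from -0.028 to 0.046, DNMT3B from -0.065 to 0.082, MAGED1 from -0.073 to 0.035 and CSAG3 from -0.043 to 0.15. The causes were not tested. Faint signals, at most 13.2 scanner units above background in single-spot probes, limit every MAGE-A value.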

Other observations

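LDHC, a testis-specific lactate dehydrogenase of the cancer-testis list, was 5.22, 9.03 and 8.97 (log2) with IL-17A and 9.45, 9.41 and 9.21 in the controls. IL-17A replicate 1 was the single low array, and the difference of -1.62 (SE 1.06) did not pass in limma (adjusted p = 0.344). With scan as a block, where that replicate alone faces the controls, the difference was -4.14 (SE 0.11) and passed (limma adjusted p = 0.0014). PAGE2B, an X-linked cancer-testis antigen, was higher on every IL-17A array at both of its probes, by 0.51 (SE 0.10, limma adjusted p = 0.046) at the brighter and 0.91 (SE 0.20, limma adjusted p = 0.054) at the dimmer. Its relative PAGE2 differed by 0.46 (SE 0.10, limma adjusted p = 0.053). GPAT2 differed by -0.39 at its brightest probe and by 0.74 at another, so its probes disagreed. These genes were chosen after their values were seen.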
